A study of Mus musculus with 2 samples.

Results

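The genes described are 41 cell-cycle genes, chosen by a list of names and not by their values, of 32285 genes counted in each library. They comprise 27 genes of mitosis, 11 genes of S phase, and Stmn1, Hmgb2 and H2afx, which were kept apart because many cells use them outside division. They were read in single-cell libraries of dissociated whole brain. All mice were 6 months of age and carried APP-KI, a knock-in allele of the amyloid precursor protein used to model amyloid pathology, so both groups shared it. In Fit2-WT the gene Fit2 (Fitm2 in the count tables, an endoplasmic reticulum protein of lipid droplet formation) was intact, and in Fit2-Mut it was disrupted in macrophages. Each genotype was 1 library from 1 cell suspension, so genotype and library cannot be told apart and no difference between genotypes has a replicate check. The number of animals behind each library, the part of the gene that was altered and what restricts the disruption to macrophages are not given in the labels.

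Cells that divide pass through a fixed order of stages: DNA is copied in S phase, and the copies are pulled apart in mitosis. The S phase genes load and run the replication machinery (the Mcm helicase subunits and the sliding clamp Pcna) or make nucleotides (Rrm2, Tyms, Tk1), and their transcription is classically tied to E2F factors. Mitosis genes encode cyclins and their kinase (Ccna2, Ccnb1, Ccnb2, Cdk1), kinetochore and checkpoint proteins (Cenpa, Cenpe, Cenpf, Bub1, Bub1b), spindle motors and binders (Kif11, Kif20b, Kif23, Tpx2, Prc1, Nusap1) and the chromosomal passenger complex (Aurkb, Birc5, Cdca8). Their promoters often hold a CHR element beside CCAAT boxes, the sites of the MuvB complexes and of NF-Y. In the adult brain, division is known mainly in neurogenic niches, oligodendrocyte precursors, immune cells and microglia, which renew themselves locally.

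Because most mitosis genes were found together in the same few barcodes, the stretches upstream of their starts are shown first. Promoters of 35 of the 41 members (37 promoters, since Prc1 and Mcm7 had a pair each) were matched by symbol in RefSeq on GRCm38.p6, and Ccna2, Aurkb, Tpx2, Mcm4, Stmn1 and H2afx were not matched. Each window held 250 bases before and 50 after the annotated start and was searched on both strands for 3 motifs, whose matches may overlap each other. CHR was searched as TTTGAA or, in its other form, as TTTAAA, and the NF-Y box as CCAAT. E2F was searched as TTTGGCGC, TTTCCCGC, TTTCGCGC, TTTGCCGC, TTTGGCGG or TTCCCGCC. The lines below give the 250 bases before the start, 5′ to 3′ on the gene's strand, with CHR and E2F matches on either strand in capitals, for the 3 mitosis and 3 S phase members with the most UMIs in microglia-like cells among those with a CHR or E2F match lying wholly in these 250 bases. Members whose matches lay only past or across the start, such as Mcm3, Pclaf and Rrm2, were therefore not printed. Mcm7 and Tk1 were passed over because their stretches overlap annotated exons.
Top2a, the DNA topoisomerase that untangles sister chromosomes, chr11:99024190-99024439, minus strand: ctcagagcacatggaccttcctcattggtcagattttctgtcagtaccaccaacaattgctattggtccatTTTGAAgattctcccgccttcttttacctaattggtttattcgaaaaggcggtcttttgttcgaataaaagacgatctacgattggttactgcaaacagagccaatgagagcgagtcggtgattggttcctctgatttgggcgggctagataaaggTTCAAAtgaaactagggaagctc
Mki67, the proliferation marker Ki-67, chr7:135716380-135716629, minus strand: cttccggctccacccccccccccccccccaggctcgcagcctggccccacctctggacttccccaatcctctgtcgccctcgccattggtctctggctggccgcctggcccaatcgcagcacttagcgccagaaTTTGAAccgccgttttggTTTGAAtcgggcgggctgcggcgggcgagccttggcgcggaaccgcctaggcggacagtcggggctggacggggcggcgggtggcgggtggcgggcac
Cenpf, a kinetochore protein, chr1:189688087-189688336, minus strand: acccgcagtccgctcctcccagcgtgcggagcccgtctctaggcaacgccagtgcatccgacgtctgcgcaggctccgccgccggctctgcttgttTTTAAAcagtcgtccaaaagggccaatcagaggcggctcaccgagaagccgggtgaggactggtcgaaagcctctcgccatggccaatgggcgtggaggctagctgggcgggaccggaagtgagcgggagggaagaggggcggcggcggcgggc
Mcm6, a subunit of the replicative helicase, chr1:128359706-128359955, minus strand: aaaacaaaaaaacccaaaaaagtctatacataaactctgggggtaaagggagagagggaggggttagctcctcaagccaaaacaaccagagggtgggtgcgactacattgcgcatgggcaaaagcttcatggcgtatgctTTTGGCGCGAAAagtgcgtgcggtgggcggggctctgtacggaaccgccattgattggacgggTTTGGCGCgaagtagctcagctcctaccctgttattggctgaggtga
Mcm5, another subunit of it, chr8:75109259-75109508, plus strand: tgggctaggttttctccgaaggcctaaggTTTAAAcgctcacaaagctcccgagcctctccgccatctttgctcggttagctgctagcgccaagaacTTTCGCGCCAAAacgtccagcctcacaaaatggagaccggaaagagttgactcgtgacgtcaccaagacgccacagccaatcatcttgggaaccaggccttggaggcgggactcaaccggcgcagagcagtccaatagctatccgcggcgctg
Mcm2, a further subunit, chr6:88898781-88899030, minus strand: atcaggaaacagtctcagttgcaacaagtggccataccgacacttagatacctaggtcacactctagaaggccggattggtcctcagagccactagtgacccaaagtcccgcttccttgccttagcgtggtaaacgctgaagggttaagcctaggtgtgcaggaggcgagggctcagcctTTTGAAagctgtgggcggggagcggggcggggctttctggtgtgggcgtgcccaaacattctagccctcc
Top2a and Mki67 each held 2 CHR matches and no E2F match, whereas Mcm6 held 3 E2F matches, 2 of them overlapping, and no CHR match. Mcm5 held both kinds.

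In the whole window, bases past the start included, a CHR match was present in 21 of 25 promoters of mitosis members (84.0%), in 5 of 11 promoters of S phase members (45.5%) and in 27.6% of all 32851 promoters of the table. For TTTGAA alone the shares were 72.0%, 9.09% and 17.9% in the same order, so the S phase matches were mostly TTTAAA. The NF-Y box was common in both groups, in 84.0% and 81.8% against 37.4% of all promoters. The E2F letters divided them the other way: 1 mitosis promoter (4%, Cdk1), 5 S phase promoters (45.5%) and 4.34% of all. Tacc3, Nusap1 and Tyms held none of the 3 motifs in their windows. Within the last 100 bases before the start, CHR matches were fewer: 9 of 25 mitosis promoters (36%), 1 of 11 S phase promoters (9.09%) and 9.71% of all. E2F matches there were in 0 of 25, 1 of 11 (9.09%) and 1.67% of all. The pair of Prc1 windows overlap, so the same CHR match counts in both. A match is a run of letters and not a site of binding.

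**Figure D1:**
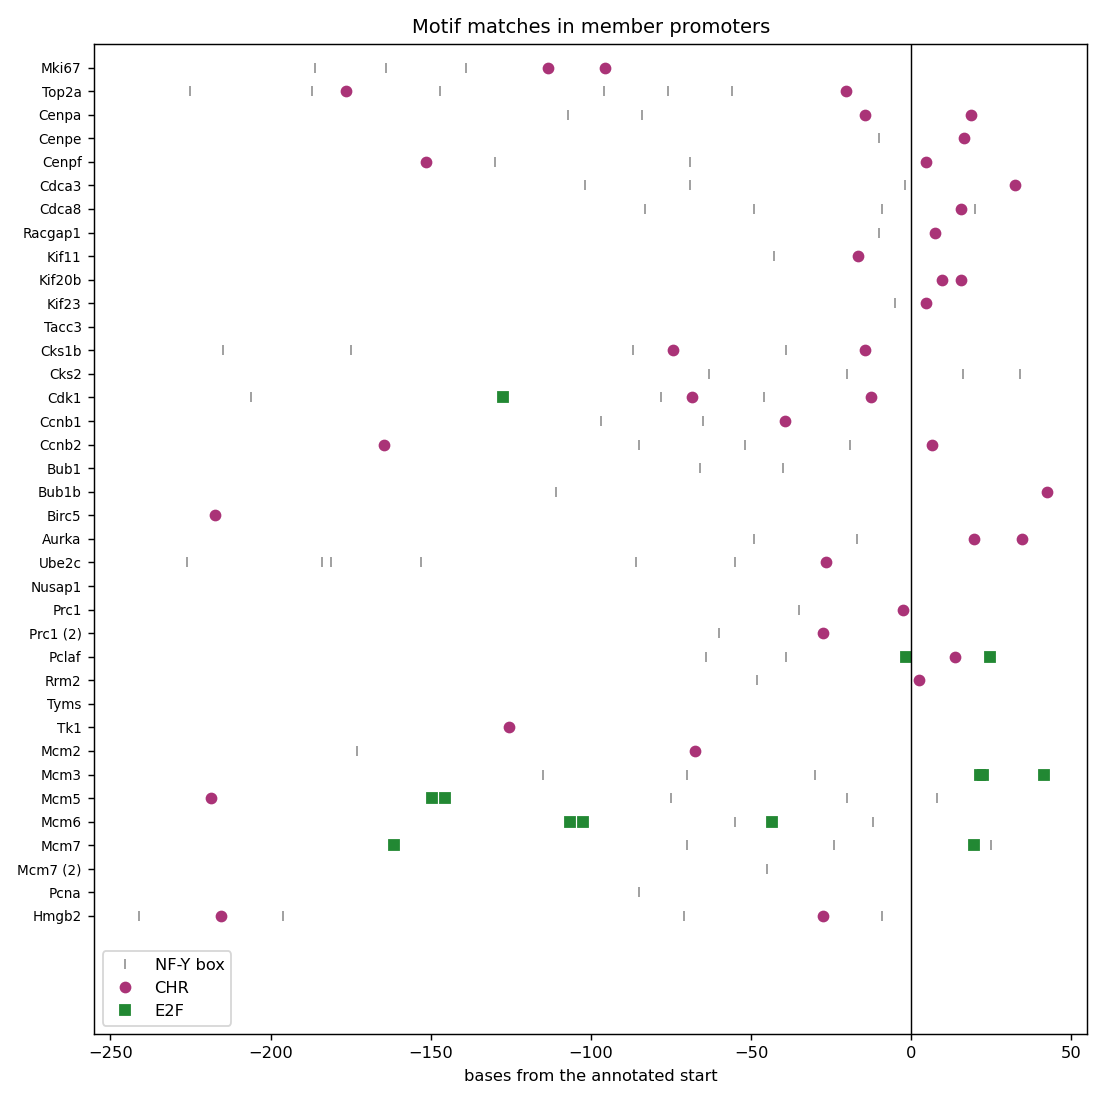
Positions of motif matches in the promoter windows of the members, in bases from the annotated start (horizontal axis, 250 before to 50 after), with 1 line per promoter, from mitosis members (top) through S phase members to Hmgb2 (bottom). Circles mark CHR matches, squares E2F matches and ticks the NF-Y box (CCAAT), and "(2)" marks the second entry of Prc1 and Mcm7. CHR circles stand in 21 of 25 mitosis lines and E2F squares in 5 of 11 S phase lines.

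The files held 52491901 UMIs for Fit2-WT and 63234140 for Fit2-Mut. Barcodes with at least 1000 UMIs, at least 500 genes and at most 10% mitochondrial UMIs numbered 5333 and 5979, with medians of 6912 and 7527 UMIs, and 10 cell barcodes occurred in both libraries. Clustering without cell-cycle genes gave 31 clusters, and their markers named 16 types, with 127 and 159 barcodes left unnamed. Oligodendrocyte precursors were not among the 16 types, so nothing is read here about their division. Fitm2 (ENSMUSG00000048486) had 21 UMIs in the Fit2-WT microglia-like cells against 5 in those of Fit2-Mut, 3.19 and 0.518 UMIs per 1000000 (CPM), a ratio of 0.162 (95% interval 0.0477 to 0.442). In all other cells it stood at 7.83 and 8.26 CPM. It was thus lower in Fit2-Mut microglia-like cells and not in the other cells, on few UMIs, and the 3′ tags counted may lie outside the altered part. Levels below are UMIs of a gene per 1000000 UMIs of the same cells, ratios are Fit2-Mut over Fit2-WT, and all intervals are 95% intervals for counting error alone, which treat each UMI as independent.

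Neuroblast-like cells (74 in Fit2-WT and 158 in Fit2-Mut), the migrating daughters of adult neural stem cells, had the highest level of 39 of the 41 members over both libraries. This held for 25 of 27 mitosis members, all 11 S phase members and all 3 others. Their summed mitosis level was 3241 CPM in Fit2-WT and 3673 CPM in Fit2-Mut, and their summed S phase level 1553 and 1378 CPM. Top2a stood at 475 and 461 CPM, Mki67 at 230 and 221 CPM, and Cenpf at 337 and 333 CPM. Ube2c, which hands ubiquitin to mitotic cyclins, differed more, with 203 and 316 CPM. Pclaf, a partner of Pcna during replication, stood at 458 and 332 CPM and Rrm2, the ribonucleotide reductase subunit of S phase, at 177 and 216 CPM. Levels were thus close in both libraries for most of these genes. No ratio was taken in this type, which had fewer than 100 cells in Fit2-WT.

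**Figure D2:**
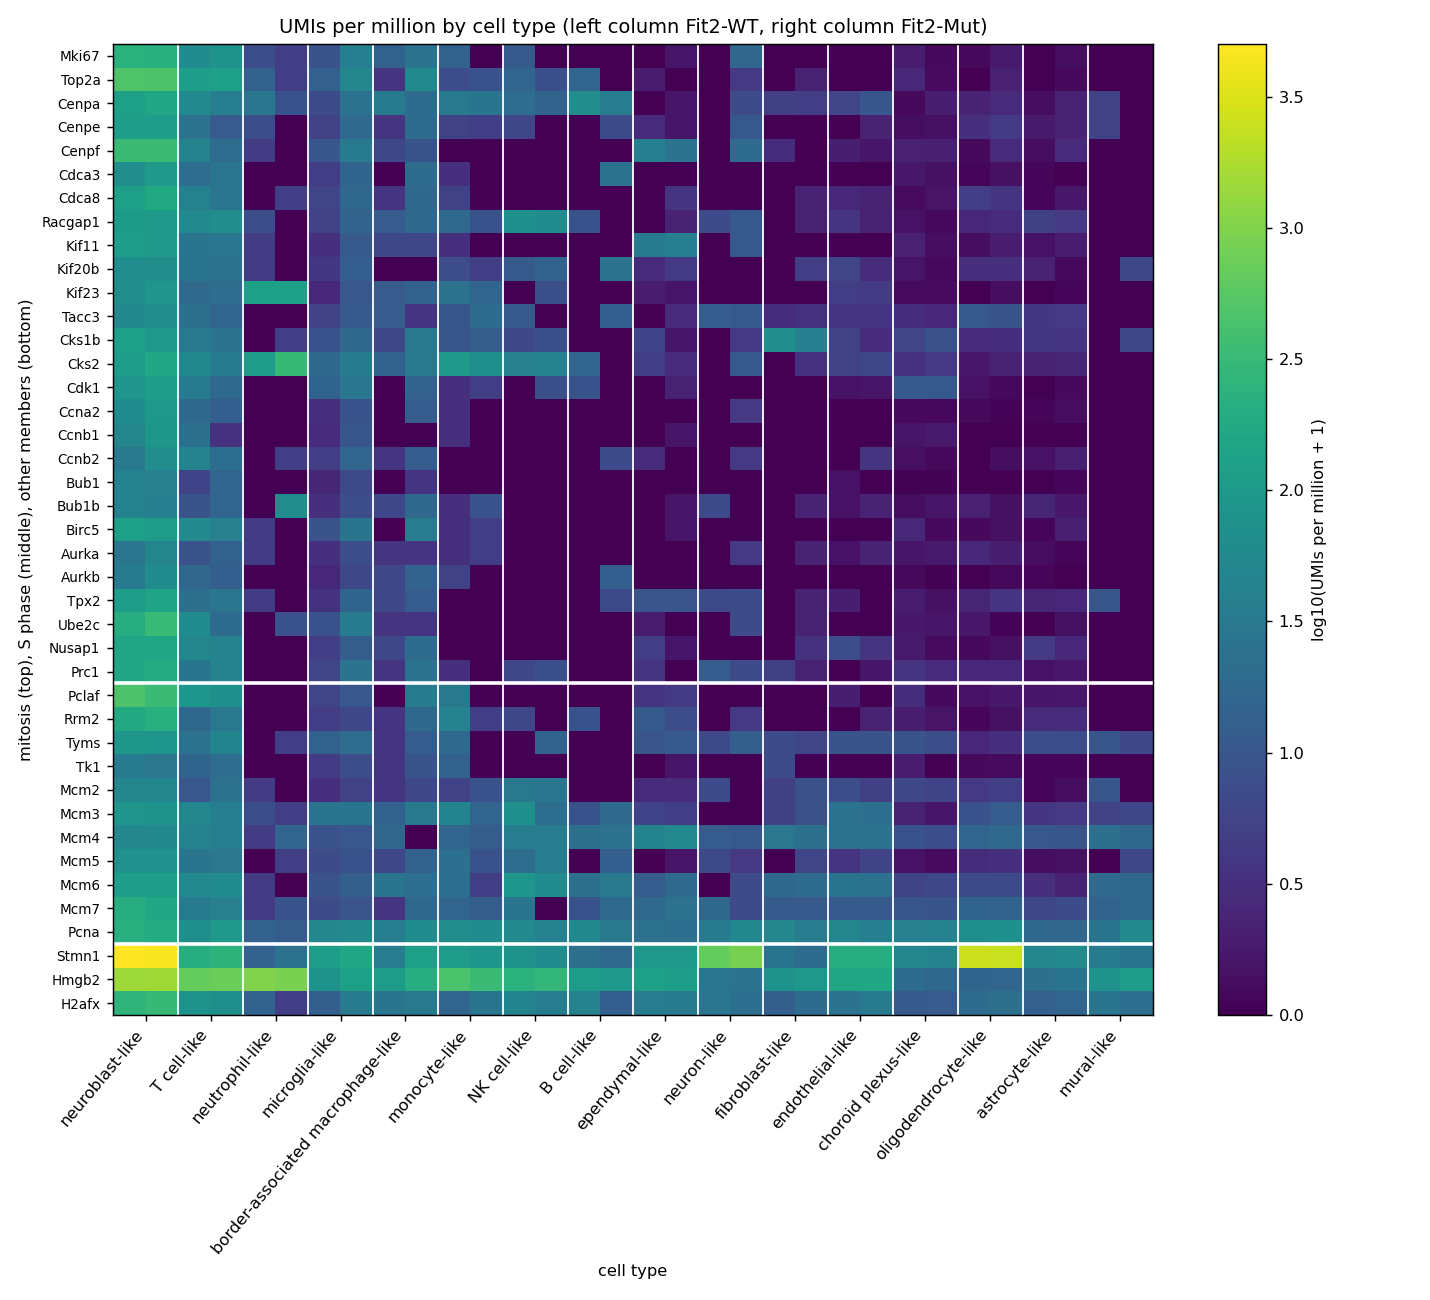
Levels of the 41 members (lines, grouped into mitosis, S phase and the other 3) in 16 named types (columns in pairs, Fit2-WT left and Fit2-Mut right), as log10 of CPM plus 1. The neuroblast-like columns are the brightest block across mitosis and S phase lines, T cell-like columns follow, and most other types are near 0 for mitosis members while Pcna, Mcm genes and Stmn1 remain visible in many.

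T cell-like cells (188 and 187) came next for most members. They ranked in places 2 or 3 for 25 of 27 mitosis members and 11 of 11 S phase members. Their summed mitosis level was 958 CPM in Fit2-WT and 808 CPM in Fit2-Mut, and their S phase level 427 and 494 CPM. Microglia-like cells (630 and 733) were among the first 3 types for 12 of 27 mitosis members but for 1 of 11 S phase members, Tyms, which makes thymidylate. Their summed mitosis level was 144 CPM in Fit2-WT and 486 CPM in Fit2-Mut, the widest gap between libraries among the 7 types with at least 100 cells in each. Border-associated macrophage-like cells (43 and 39) showed 146 and 425 CPM, but 1 Fit2-Mut barcode held 73.7% of the mitosis UMIs in that group, and without such barcodes the level was 118 and 117 CPM.

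Monocyte-like cells (70 and 44) had 247 and 183 CPM of mitosis RNA and NK cell-like cells (46 and 34) had 193 and 167 CPM, above the Fit2-WT microglia-like level, on 114 and 48 and on 38 and 24 UMIs. The large glial and epithelial types had less. Astrocyte-like cells (1179 and 1433) had 23.3 and 25.8 CPM over all 27 mitosis genes, oligodendrocyte-like cells (760 and 958) 32.5 and 36.3 CPM, choroid plexus-like cells (1441 and 1491) 36.9 and 33.0 CPM, and endothelial-like cells (432 and 340) 39.9 and 37.9 CPM. Mural-like cells had 4 and 2 mitosis UMIs in all. Barcodes with 10 to 100 UMIs, which hold mostly RNA free in the suspension, had 95.3 CPM in Fit2-WT and 158 CPM in Fit2-Mut for the mitosis members and 92.9 and 114 CPM for the S phase members. The mitosis levels in astrocyte-like, oligodendrocyte-like, choroid plexus-like and endothelial-like cells thus lay below that of free RNA, and no expression is read from them. The S phase levels of the choroid plexus-like (80.3 and 76.8 CPM) and astrocyte-like cells (45.3 and 46.0 CPM) also lay below it, whereas those of endothelial-like (148 and 136 CPM), oligodendrocyte-like (120 and 128 CPM) and ependymal-like cells (125 and 145 CPM) lay above.

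**Figure D3:**
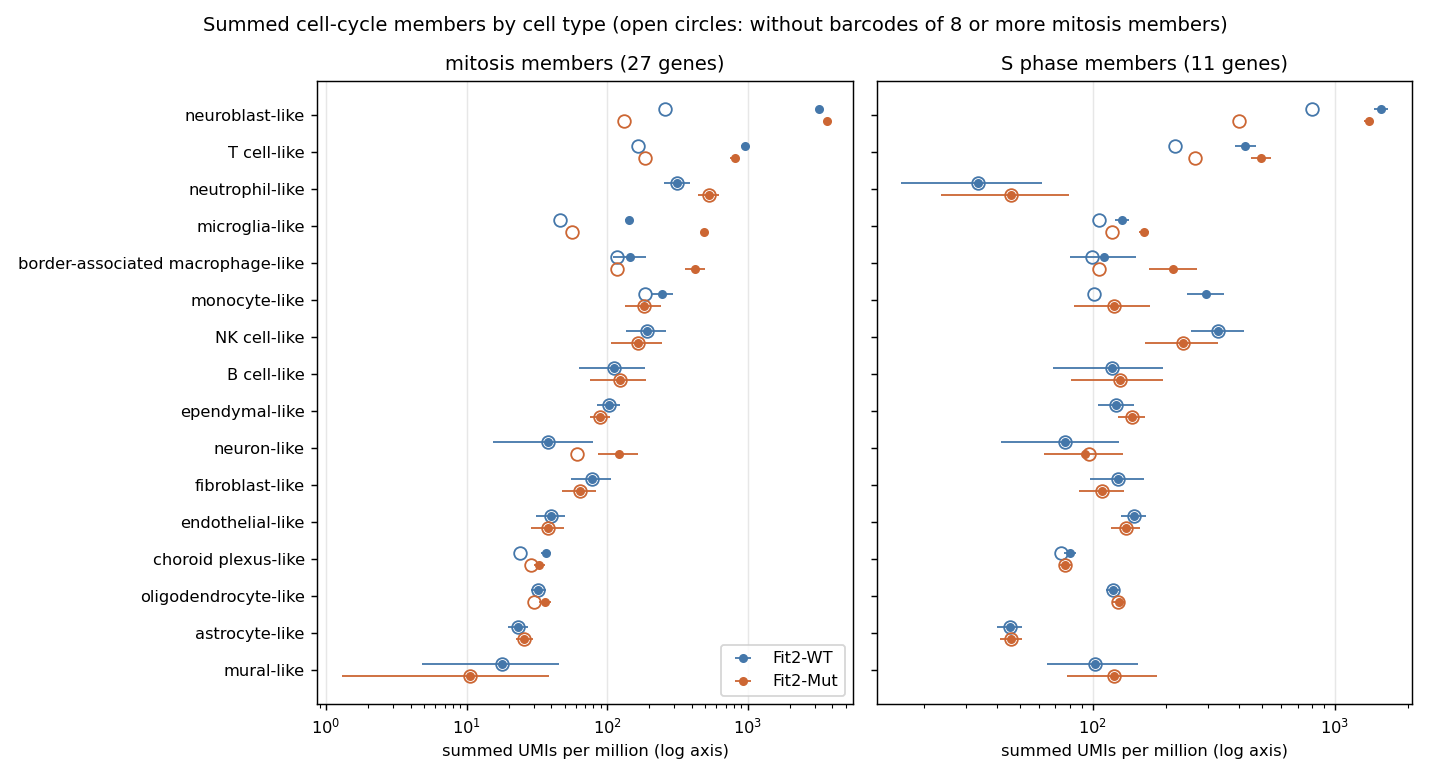
Summed level of the 27 mitosis members and of the 11 S phase members in each named type, in CPM on a log axis, for Fit2-WT and Fit2-Mut, with exact Poisson 95% intervals. Open circles give the level without barcodes that held at least 8 mitosis members. Mitosis levels span from 10.7 CPM in Fit2-Mut mural-like cells to 3673 CPM in Fit2-Mut neuroblast-like cells, and the open circles of neuroblast-like, T cell-like and microglia-like cells fall far below the filled ones.

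Some members departed from the common order. Kif23, a motor of the central spindle, and Cks2, a small subunit that binds cyclin-dependent kinases, were highest in neutrophil-like cells (74 and 61 cells) at 127 and 206 CPM over both libraries. Kif23 had 37 UMIs (124 CPM) in Fit2-WT and 34 UMIs (130 CPM) in Fit2-Mut, in 26 and 24 cells. Cks2 had 33 UMIs (111 CPM) and 79 UMIs (301 CPM). These 2 genes made up 78.5% of the 233 mitosis UMIs of neutrophil-like cells. Of the other mitosis members, 9 had no UMI there in either library and 13 had 1 to 3, so the summed levels of 316 and 530 CPM did not stand for the group. Bub1b, a checkpoint kinase, had 17 UMIs in Fit2-Mut, all in 1 cell.

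Ependymal-like cells (105 and 142), which line the ventricles with motile cilia, likewise held a few mitosis members and not the rest. Kif11, the motor that separates spindle poles, stood at 32.4 CPM in Fit2-WT and 39.0 CPM in Fit2-Mut, and Cenpf at 38.9 and 24.3 CPM. Top2a had 1 and 0 UMIs and Mki67 0 and 1 in the same cells. Mcm4 stood at 45.4 and 55 CPM, close to its level in neuroblast-like cells (51.1 and 52.0 CPM). Stmn1, which destabilizes microtubules, was at 2602 and 2457 CPM in oligodendrocyte-like cells, second to neuroblast-like cells with 5020 and 4625 CPM. Hmgb2, a chromatin protein, was at 986 and 899 CPM in neutrophil-like cells, which had 33.6 and 45.7 CPM over all S phase members. High levels of these genes therefore did not go with the other members in those types.

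Most mitosis RNA lay in very few barcodes. Of the barcodes kept in both libraries, 8447 held no mitosis member, 95 held at least 8 of the 27 and 22 held all 27. The limit of 8 was set after the values were seen, and 26 barcodes held 5 to 7 members and 17 held 8 to 10. For each mitosis member in turn, the barcodes with at least 8 of the other mitosis members held between 40.6% (Cks1b) and 96.1% (Ccna2) of its UMIs, with a median of 82.2% over the 27 and over 90% for 9 of them. The 95 barcodes were 0.840% of barcodes and held 1.85% of all UMIs. Top2a had 94.2% of its UMIs there. Tacc3, a spindle protein, and Cks1b had the smallest shares, with 40.9% and 40.6%.

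S phase members split. Pclaf had 88.0% of its UMIs in those barcodes, Tk1 84.4% and Rrm2 78.7%, within the range of the mitosis members. Tyms had 31.8%, Pcna 10.1% and Mcm4 8.48%, and the median over the 11 was 22.4%. Stmn1 had 9.39%, H2afx 37.4% and Hmgb2 45.1%. Most UMIs of Pcna, the Mcm subunits and Tyms thus lay in other barcodes, while most of those of Tk1, Rrm2 and Pclaf did not.

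Of the 95 barcodes, 84 were neuroblast-like, microglia-like or T cell-like. Neuroblast-like cells had 15 of 74 (20.3%, exact Clopper-Pearson interval 11.8 to 31.2%) in Fit2-WT and 29 of 158 (18.4%, 12.7 to 25.3%) in Fit2-Mut. T cell-like cells had 5 of 188 (2.66%) and 5 of 187 (2.67%). Microglia-like cells had 5 of 630 (0.794%, 0.258 to 1.84%) in Fit2-WT and 25 of 733 (3.41%, 2.22 to 4.99%) in Fit2-Mut. The share was thus higher in Fit2-Mut in microglia-like cells and close in the other 2 types. These intervals cover the counting of cells within 1 library each and do not compare genotypes, and Fit2-Mut microglia-like cells were deeper. Scrublet called 2 of the 95 doublets, 1 of them among the 5 Fit2-WT microglia-like barcodes and 1 an unnamed Fit2-Mut barcode.

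**Figure D4:**
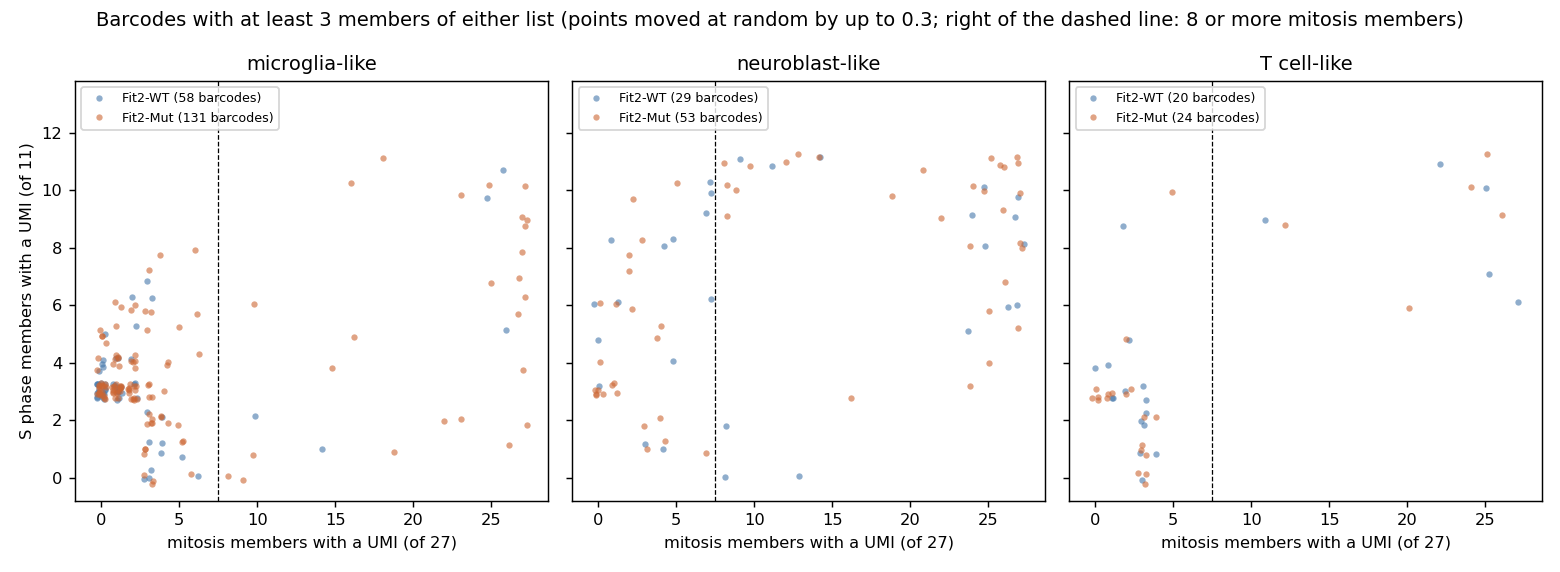
Number of mitosis members (horizontal axis, 0 to 27) and of S phase members (vertical axis, 0 to 11) with a UMI in each barcode that held at least 3 members of either list, in microglia-like, neuroblast-like and T cell-like cells, with Fit2-WT and Fit2-Mut in separate colours and points shifted by up to 0.3 so that they do not hide each other. Barcodes with at least 8 mitosis members lie right of the dashed line, where there are 5 Fit2-WT and 25 Fit2-Mut microglia-like barcodes, 15 and 29 neuroblast-like barcodes, and 5 and 5 T cell-like barcodes.

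In microglia-like cells the many-member barcodes kept microglial RNA. The 7 microglia markers summed to 16492 CPM in the 5 Fit2-WT barcodes and 19961 CPM in the 25 Fit2-Mut barcodes, against 20998 and 19901 CPM in the rest of the type, and the median barcode held all 7. All 8 neuroblast markers and all 6 T cell markers had 0 UMIs in them in both libraries. Oligodendrocyte markers summed to 4104 CPM in Fit2-WT, where 1 barcode held 7 of the 8, and to 80.3 CPM in Fit2-Mut, where no barcode held more than 3. Their median depth was 24436 and 23432 UMIs, against 9479 and 11440 in the rest. Clusters 3, 12 and 18 made up the type, cluster 3 held most of it in both libraries (429 and 549 cells), and the many-member share there was 0.699% and 3.64%. In cluster 12 it was 0.709% and 3.31%, and in cluster 18 1 barcode was found in each library.

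Since deeper cells show more genes, each cell was also thinned to 1000 UMIs. At least 3 mitosis members then remained in 6 of 630 Fit2-WT microglia-like cells (0.952%, interval 0.350 to 2.06%) and in 17 of 733 Fit2-Mut cells (2.32%, 1.36 to 3.69%), a share ratio of 2.44. Without thinning, the counts were 17 (2.70%) and 59 (8.05%) at median depths of 9494 and 11650 UMIs. With at least 5 members required, the thinned counts were 2 (0.317%, 0.0385 to 1.14%) and 15 (2.05%, 1.15 to 3.35%). The thinned share was higher in Fit2-Mut at both limits, with a size that depended on the limit. In endothelial-like cells, in which Top2a and Mki67 had no UMI, the thinned counts were 0 of 432 and 0 of 340, for which a floor of 3 counts allows up to 0.694% and 0.882%, at median depths of 3902.5 and 3943 UMIs. The unthinned counts there were 0 and 1, so these cells cannot show whether thinned counts differ between libraries. In T cell-like cells at least 3 members remained in 3 of 188 (1.60%, 0.330 to 4.59%) and 5 of 187 (2.67%, 0.874 to 6.13%). In neuroblast-like cells they remained in 12 of 74 (16.2%, 8.67 to 26.6%) and 20 of 158 (12.7%, 7.91 to 18.9%).

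Summed over the cells, the 27 mitosis members numbered 947 UMIs over the microglia-like cells of Fit2-WT and 4699 over those of Fit2-Mut, 144 and 486 CPM, a ratio of 3.38 (3.15 to 3.63). All 27 were at least 1.5-fold higher in Fit2-Mut, beside 9.95% of the 13149 genes that reached 20 UMIs over both libraries. None was at least 1.5-fold lower, beside 4.09% of those genes. The median log2 ratio was 1.88 over the 27, against 0.08 over all genes. The intervals of all 27 ratios lay above 1.

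Top2a (ENSMUSG00000020914) had 83 UMIs (12.6 CPM) in Fit2-WT and 464 UMIs (48.0 CPM) in Fit2-Mut, a ratio of 3.81 (3.01 to 4.87). Mki67 (ENSMUSG00000031004) had 52 UMIs (7.91 CPM) and 373 UMIs (38.6 CPM), a ratio of 4.88 (3.65 to 6.66). Cenpf (ENSMUSG00000026605) had 57 UMIs (8.67 CPM) and 307 UMIs (31.8 CPM), a ratio of 3.67 (2.76 to 4.95). These are the mitosis genes whose promoter stretches are printed above, and each was over 3-fold higher in Fit2-Mut. Ube2c (ENSMUSG00000001403) had 49 UMIs (7.45 CPM) and 309 UMIs (32.0 CPM), a ratio of 4.29 (3.17 to 5.93). Cks2 (ENSMUSG00000062248) had 105 UMIs (16.0 CPM) and 317 UMIs (32.8 CPM), a ratio of 2.05 (1.64 to 2.59). Cdk1 (ENSMUSG00000019942), the mitotic kinase, had 96 UMIs (14.6 CPM) and 262 UMIs (27.1 CPM), a ratio of 1.86 (1.47 to 2.37). Cks2 and Cdk1 had the smaller ratios of these 6.

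The other mitosis members ranged from 2.16 to 6.08. Among cyclins and cell-cycle kinases, the ratio was 4.4 for Ccnb1, 4.11 for Ccnb2, 3.31 for Ccna2, 2.86 for Aurka and 3.22 for Aurkb. Among centromere and checkpoint genes it was 3.79 for Cenpa, 4.01 for Cenpe, 3.68 for Bub1 and 3.01 for Bub1b. Birc5 (survivin) and Cdca8 (borealin), partners of Aurkb, had 3.35 and 3.42. Genes of the spindle and of cytokinesis had 4.62 (Kif11), 3.81 (Kif20b), 5.45 (Kif23), 6.08 (Tpx2), 5.08 (Prc1), 3.06 (Nusap1), 2.30 (Tacc3) and 3.19 (Racgap1). Cdca3, which helps to start mitotic entry, had 3.97, and Cks1b, the relative of Cks2, 2.16. Each of these roles thus had members over 3-fold higher, with Tacc3, Cks1b and Aurka the lowest of these 21.

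**Figure D5:**
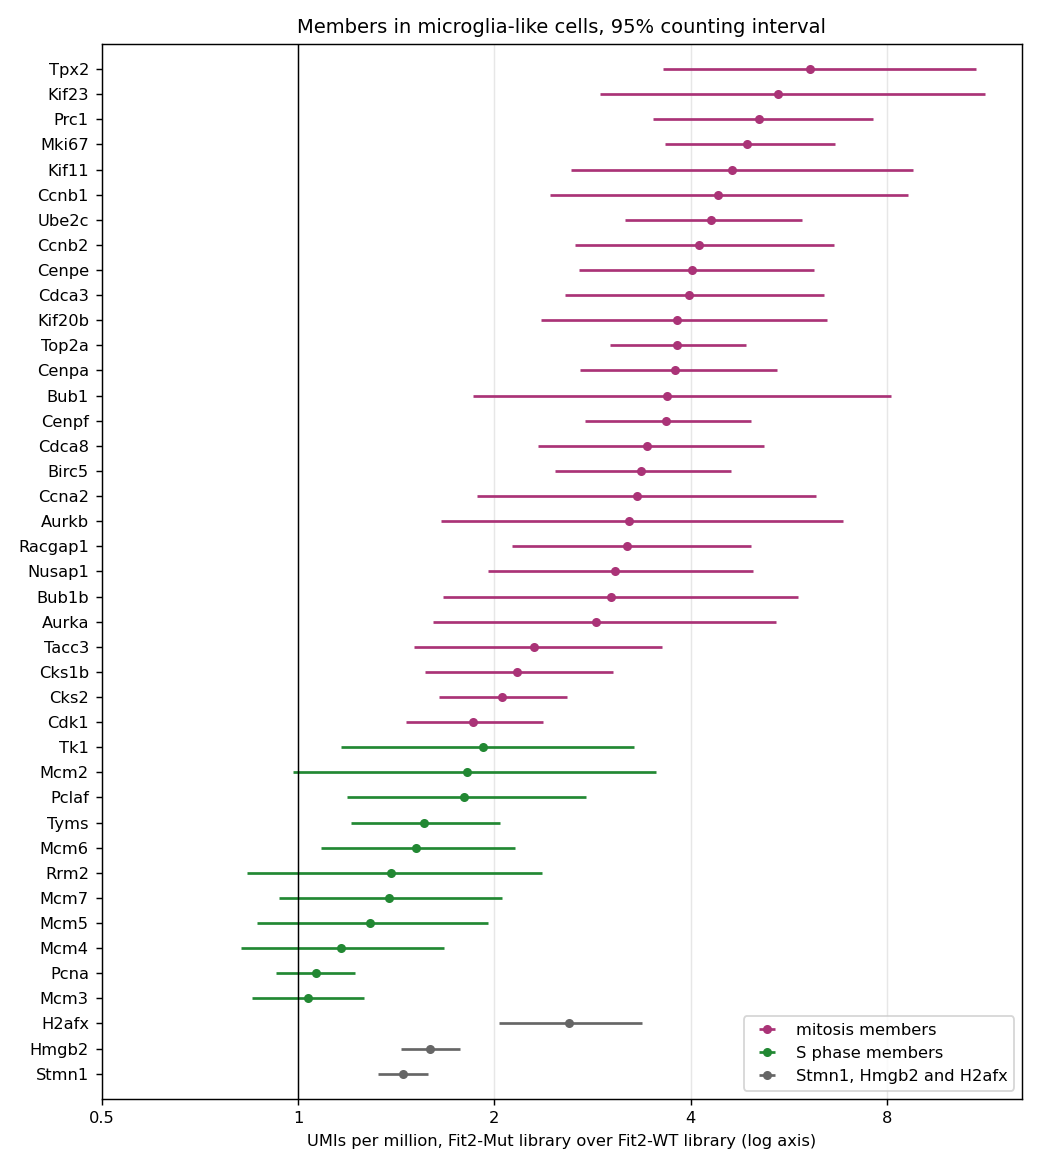
Ratio of Fit2-Mut over Fit2-WT in microglia-like cells for each of the 41 members, on a log axis, with exact 95% intervals for counting error and a line at 1. All 27 mitosis members lie between 1.86 and 6.08 with intervals above 1, whereas S phase members lie between 1.04 and 1.92 and 7 of 11 intervals include 1.

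The S phase members differed far less. Their sum was 864 UMIs (131 CPM) in Fit2-WT and 1571 UMIs (163 CPM) in Fit2-Mut, a ratio of 1.24 (1.14 to 1.35). In barcodes of free RNA they summed to 92.9 and 114 CPM, lower but also shifted toward Fit2-Mut. The part of free RNA in this ratio was not tested. Of the 11, 5 were at least 1.5-fold higher and none lower, beside the same 9.95% and 4.09% of all genes, and the median log2 ratio was 0.47. Pcna (ENSMUSG00000027342) had 332 UMIs (50.5 CPM) and 519 UMIs (53.7 CPM), a ratio of 1.06 (0.925 to 1.23). Mcm3 (ENSMUSG00000041859), a helicase subunit, had 169 UMIs (25.7 CPM) and 257 UMIs (26.6 CPM), a ratio of 1.04 (0.849 to 1.26). For both, the levels in the libraries were within counting error of each other.

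Tyms (ENSMUSG00000025747) had 85 UMIs (12.9 CPM) and 195 UMIs (20.2 CPM), a ratio of 1.56 (1.20 to 2.04). Mcm6 (ENSMUSG00000026355) had 52 UMIs (7.91 CPM) and 116 UMIs (12 CPM), a ratio of 1.52 (1.09 to 2.15). Pclaf and Tk1, whose UMIs sat mostly in many-member barcodes, had ratios of 1.79 (1.19 to 2.77) and 1.92 (1.16 to 3.28). These 4 had intervals above 1. For Mcm2 (1.82), Rrm2 (1.39), Mcm7 (1.38), Mcm5 (1.29) and Mcm4 (1.16) the intervals included 1.

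Of the other 3 members, Stmn1 (ENSMUSG00000028832) had 755 UMIs (115 CPM) in Fit2-WT and 1607 UMIs (166 CPM) in Fit2-Mut, a ratio of 1.45 (1.33 to 1.58). Hmgb2 (ENSMUSG00000054717) had 525 UMIs (79.8 CPM) and 1230 UMIs (127 CPM), a ratio of 1.59 (1.44 to 1.77). H2afx (ENSMUSG00000049932), the histone variant phosphorylated at DNA breaks, had 81 UMIs (12.3 CPM) and 310 UMIs (32.1 CPM), a ratio of 2.60 (2.03 to 3.37). All 3 were higher in Fit2-Mut, H2afx by the most.

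The many-member barcodes held 68.6% of the mitosis UMIs of Fit2-WT and 89.2% of those of Fit2-Mut microglia-like cells, but 20.6% and 31.3% of the S phase UMIs. Without them the summed mitosis level was 45.9 and 56.0 CPM, a ratio of 1.22 (1.05 to 1.41), and both levels lay below that of free RNA. The summed S phase level was then 106 and 119 CPM, a ratio of 1.13, beside 92.9 and 114 CPM in free RNA. Because the left-out barcodes were picked by their mitosis genes, these values only describe the remainder. In it 10 mitosis members still reached 20 UMIs, of which 3 were at least 1.5-fold higher (8.99% of all genes were) and none lower (3.91%). Top2a stood at 1.24 and 1.33 CPM there, and Cdk1 at 9.12 and 9.29 CPM, so neither differed beyond counting error. Cenpa, the histone of centromeres, had 17 and 48 UMIs (ratio 2.02, 1.14 to 3.75), and Mcm6 44 and 102 UMIs (1.66, 1.15 to 2.42). In barcodes of free RNA Mcm6 stood at 7.35 and 10.6 CPM, beside 6.80 and 11.3 CPM in this remainder, and Cenpa at 4.99 and 6.61 CPM, beside 2.63 and 5.31 CPM. Both were thus higher in Fit2-Mut free RNA too, and its part in these 2 differences was not tested.

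Stmn1 changed direction in that remainder. It had 481 UMIs (74.4 CPM) in Fit2-WT and 432 UMIs (47.8 CPM) in Fit2-Mut, a ratio of 0.643 (0.563 to 0.734), lower in Fit2-Mut where the whole type was higher. In the same cells the 8 oligodendrocyte markers, none of them at 0, summed to 533 CPM in Fit2-WT and 226 CPM in Fit2-Mut, where Stmn1 stood at 2602 and 2457 CPM in oligodendrocyte-like cells. The choroid plexus markers summed to 10519 and 7203 CPM. In barcodes of free RNA Stmn1 stood at 410 CPM in Fit2-WT and 572 CPM in Fit2-Mut, a shift opposite to that of the remainder. Its levels in the remainder and in the whole type lay below these, and no expression is read from those of the remainder. The part of oligodendrocyte, choroid plexus or free RNA in the Stmn1 values was not tested. Cenpa, Mcm6 and Stmn1 were picked out here after their values were seen.

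The balance of S phase to mitosis RNA within many-member barcodes was set side by side across types. In microglia-like ones there were 0.274 S phase UMIs per mitosis UMI in Fit2-WT (0.231 to 0.324, 5 barcodes) and 0.117 in Fit2-Mut (0.107 to 0.129, 25 barcodes). These intervals are for UMIs pooled over the barcodes and do not measure the spread between barcodes. In neuroblast-like ones there were 0.340 and 0.313, and in T cell-like ones 0.283 and 0.393. Before thinning, microglia-like barcodes of Fit2-Mut thus had the fewest S phase UMIs per mitosis UMI of the 6 groups. The median Fit2-Mut microglia-like barcode had 5.85% of its S phase and mitosis UMIs from S phase members, against 30.1% in Fit2-Mut neuroblast-like and 40.8% in Fit2-Mut T cell-like barcodes. In Fit2-WT the medians were 9.09% in microglia-like, 21.8% in neuroblast-like and 25.5% in T cell-like barcodes, so the microglia-like share was the lowest in both libraries. Single barcodes ranged widely, in Fit2-Mut from 0 to 62.4% in microglia-like and from 3.91 to 84.3% in neuroblast-like ones, and in Fit2-WT from 2.86 to 39.7% and from 0 to 80.5%. After thinning to 1000 UMIs the microglia-like values were 0.0645 (0.00748 to 0.254, 2 S phase UMIs) and 0.0809 (0.0433 to 0.14, 14 S phase UMIs). The gap between libraries was thus not detectable at that depth. Neuroblast-like barcodes stood at 0.241 in both (0.159 to 0.354 and 0.181 to 0.317). T cell-like barcodes stood at 0.304 and 0.422. At that depth the Fit2-Mut microglia-like value lay below the Fit2-Mut values of the other types, with intervals that did not overlap. The Fit2-WT microglia-like interval overlapped those of the other types, so no order is read in that library. All these barcodes were picked by their mitosis genes, which weights the balance toward mitosis members.

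Barcodes with S phase members and hardly any mitosis members were also counted. At least 4 S phase members with at most 3 mitosis members were found in 12 of 630 microglia-like cells in Fit2-WT and in 26 of 733 in Fit2-Mut. Oligodendrocyte-like cells had 5 and 17 and choroid plexus-like cells 7 and 7 such barcodes, types with almost no many-member barcodes. Neuroblast-like cells had 4 and 8. Such barcodes were thus found in types with and without mitosis RNA.

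In T cell-like cells the mitosis members had 856 UMIs (958 CPM) in Fit2-WT and 690 UMIs (808 CPM) in Fit2-Mut, a ratio of 0.843 (0.761 to 0.933). Without the 5 many-member barcodes of each library, which held 84.2% and 78.8% of these UMIs, the levels were 166 and 185 CPM and the ratio 1.12 (0.879 to 1.42). The direction thus rested on those 10 barcodes. Of 25 mitosis members with at least 20 UMIs, 2 were at least 1.5-fold higher and 8 lower, beside 12.6% and 6.80% of all genes. Ccnb1 had 20 and 2 UMIs, Ube2c 54 and 16 UMIs, and Cenpf 40 and 17 UMIs, with ratios of 0.105, 0.310 and 0.444 whose intervals lay below 1, as did those of Ccnb2 (0.483) and Cks2 (0.601). Top2a (105 and 103 UMIs), Mki67 (54 and 67 UMIs) and Racgap1, which acts at the cleavage furrow (51 and 54 UMIs), did not differ beyond counting error.

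The S phase members of T cell-like cells went the other way, with 381 UMIs (427 CPM) and 422 UMIs (494 CPM), a ratio of 1.16 (1.01 to 1.33). Pcna had 62 UMIs (69.4 CPM) and 86 UMIs (101 CPM), a ratio of 1.45 (1.03 to 2.04). Tyms at 1.94 and Mcm2 at 2.61 also had intervals above 1. Pclaf (79 and 60 UMIs) and Mcm6 (49 and 51 UMIs) did not differ beyond counting error. Stmn1 had a ratio of 1.25 (1.02 to 1.54). Many-member barcodes held 82.6% and 84.0% of the UMIs of Stmn1 and 71.4% and 74.4% of those of Tyms. They held less of Pcna (25.8% and 39.5%) and of Mcm2 (37.5% and 25.0%).

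In choroid plexus-like cells, the epithelium that makes cerebrospinal fluid, the mitosis ratio was 0.893, with an interval that included 1, and 1 Fit2-WT barcode with all 27 members held 35.4% of that library's mitosis UMIs there. Without it and 1 Fit2-Mut barcode the ratio was 1.20 (1.05 to 1.37), so the direction rested on these 2 barcodes. Of 28 members with at least 20 UMIs, 2 were at least 1.5-fold higher (3.0% of all genes were) and 8 lower (3.81%). Birc5 (28 and 4 UMIs), Top2a (26 and 5 UMIs), Mki67 (17 and 4 UMIs), Kif11 (20 and 6 UMIs) and Pclaf (34 and 4 UMIs) had fewer UMIs in Fit2-Mut, but that Fit2-WT barcode alone held all UMIs of Top2a, 97.1% of those of Pclaf, 88.2% of Mki67, 82.1% of Birc5 and 40% of Kif11. These are values of 1 cell, and no difference of the type is read from them. Cdk1 (170 and 157 UMIs) and Cks2 (42 and 51 UMIs) did not differ beyond counting error, while Cks1b had 82 and 122 UMIs (4.88 and 7.37 CPM, ratio 1.51, 1.13 to 2.02). Free RNA held Cks1b at 4.20 and 6.08 CPM, close to these levels and shifted the same way. Cenpa had 4 and 17 UMIs, of which barcodes with at least 8 other mitosis members held 100% and 82.4%, so no difference of the type is read from it. Pcna (665 and 714 UMIs), Mcm7 (150 and 134 UMIs) and Tyms (138 and 112 UMIs) had intervals that included 1.

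Oligodendrocyte-like cells had mitosis and S phase ratios of 1.12 and 1.06, and 2 Fit2-Mut barcodes held 16.8% of that library's mitosis UMIs. Of 23 members, 4 were at least 1.5-fold higher and 1 lower, beside 5.68% and 3.65% of all genes. Cenpf had 2 and 19 UMIs there. Barcodes with at least 8 other mitosis members held 68.4% of the 19, and 5 cells held 94.7%, so no difference of the type is read from it. Tacc3 (74 and 88 UMIs), Cdca8 (29 and 28 UMIs) and Cenpe (17 and 36 UMIs) had intervals that included 1, as had Pcna (535 and 759 UMIs), Mcm4 (118 and 186 UMIs) and Mcm7 (112 and 150 UMIs). Mcm3 had a ratio of 1.42 (1.03 to 1.98). Stmn1, with 20028 and 26622 UMIs, had a ratio of 0.944 (0.927 to 0.962), a small difference that only the large count resolves.

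Astrocyte-like cells had mitosis and S phase ratios of 1.11 and 1.02, and the most counted members were Racgap1 (24 and 26 UMIs), Tacc3 (18 and 25), Cks1b (18 and 22), Pcna (95 and 130), Mcm4 (54 and 73) and Tyms (39 and 56). None of 16 members was at least 1.5-fold higher (4.20% of all genes were) and 2 were lower (3.89%). Endothelial-like cells had ratios of 0.951 and 0.924, and Top2a and Mki67 had no UMI in them in either library. Their most counted members were Cenpa (9 and 13 UMIs), Cks2 (8 and 8), Nusap1 (12 and 4), Pcna (87 and 58), Mcm6 (47 and 36) and Mcm4 (44 and 37), and 1 of 10 was at least 1.5-fold higher (6.83%) and none lower (4.75%). In neither type did the interval of any member with at least 20 UMIs exclude 1. Ependymal-like cells had ratios of 0.872 and 1.16, with 1 of 12 members higher (8.23%) and 2 lower (6.06%). Cenpf (42 and 38 UMIs, ratio 0.625, 0.392 to 0.994) had an interval below 1 there, while those of Kif11 (35 and 61 UMIs), Tpx2 (9 and 13), Mcm4 (49 and 86), Pcna (25 and 34) and Mcm7 (19 and 37) included 1.

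Genes of the same pathway outside the 41 were read from lists in microglia-like cells. Of 57 other mitosis genes with at least 20 UMIs (62 listed), 47 were at least 1.5-fold higher in Fit2-Mut and none lower, with a median log2 ratio of 1.31. They were read in the same cells as the members, including the 5 and 25 many-member barcodes, which held 68.6% and 89.2% of the members' mitosis UMIs. The share of their own UMIs in those barcodes is not given, so this list is no independent check of the members. Of 39 other S phase genes (44 listed), 12 were higher and none lower, with a median of 0.32. Of 20 G1 cyclins, kinases and inhibitors, 3 were higher and none lower, with a median of 0.27. Beside these stand 9.95% of all genes higher and 4.09% lower, so by the 1.5-fold count the G1 list lay near the background and the mitosis list far above it. By the median the G1 list lay above the 0.08 of all genes. Of its 20 genes 18 had a ratio above 1, as had 8270 of all 13149 genes.

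The 3 most counted genes of each list had ratios between 1.04 (Pttg1) and 1.41 (Atad2). Lmnb1, a lamin, stood at 49.4 CPM in Fit2-WT and 63.7 CPM in Fit2-Mut, Pttg1 (securin) at 49.9 and 52.0 CPM, and Gas2l3, which links actin and microtubules, at 35.0 and 38.4 CPM. Among replication genes, Rfc2, a clamp loader subunit, stood at 36.3 and 39.2 CPM, Slbp, which binds histone mRNA, at 30.1 and 37.5 CPM, and Atad2 at 20.1 and 28.3 CPM. Of the G1 list, the antiproliferative genes Btg2 and Btg1 stood at 775 and 810 CPM and at 343 and 414 CPM, and the G1 kinase Cdk6 at 88.2 and 103 CPM. The 3 genes of the G1 list past the limit, named after their values were seen, were the inhibitors Cdkn1a and Cdkn2c and Rbl1, a relative of the retinoblastoma protein: Cdkn1a had 344 and 1037 UMIs (ratio 2.05, 1.81 to 2.32), Cdkn2c 62 and 180 UMIs (1.98, 1.47 to 2.68) and Rbl1 52 and 118 UMIs (1.54, 1.11 to 2.18).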

How the data were processed

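Single cells were released from whole brains with the Adult Brain Dissociation Kit (Miltenyi) and droplet libraries that read transcript 3′ ends were made, per the labels' protocols. The authors deposited raw UMI counts per gene and barcode for all barcodes, per the file headers, made with Cell Ranger on mm10 (version 7.0.0 per the submitters' processing notes, 7.1.0 per the file headers); which gene annotation was used, and how reads of introns or of near-identical gene copies were counted, is not given in the sources used here.

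Barcodes were kept at 1000 UMIs, 500 genes and 10% mitochondrial UMIs. They were clustered with scanpy 1.11.5 and leidenalg 0.10.2 (3000 variable genes without cell-cycle genes, 50 components, 15 neighbours, resolution 1), and clusters were named "X-like" from marker lists when at least 3 markers and at least a share of 0.5 of the list were enriched. Names rebuilt in this way may differ from those of the study. Scrublet called 124 and 155 barcodes doublets, and these were kept in the main values. UMIs were summed per type and library and divided by that type's total. Level and ratio intervals are exact Poisson and exact conditional 95% intervals, and shares have exact Clopper-Pearson intervals. With 1 library per group no p-value was computed. Ratios were taken in types with at least 100 cells in each library, and a gene entered with at least 20 UMIs in both together. Members named in full were those with the most UMIs in each group and type; all members whose microglia-like interval excluded 1 were also named. Members, lists and rules were chosen with earlier results of these data known. Scripts (Python 3.11.15, and R 4.3.3 with edgeR 4.0.16 for TMM factors, an alternative scaling only) were tested on simulated data.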

Additional observations from a re-analysis of the deposited data

Results flagged for a closer look

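The summed ratios of Fit2-Mut over Fit2-WT went in opposite directions in different types, with intervals on opposite sides of 1. For the mitosis members the ratio was 3.38 in microglia-like cells and 0.843 in T cell-like cells. Without the many-member barcodes these ratios were 1.22 (1.05 to 1.41) and 1.12 (0.879 to 1.42), so the opposite directions rested on those barcodes. Stmn1, Hmgb2 and H2afx together had a ratio of 1.57 in microglia-like cells, 1.16 in astrocyte-like cells and 1.10 in T cell-like cells, but 0.946 in oligodendrocyte-like cells and 0.899 in choroid plexus-like cells. In barcodes of free RNA these 3 genes summed to 462 CPM in Fit2-WT and 643 CPM in Fit2-Mut. Their sums in microglia-like (207 and 326 CPM), astrocyte-like (84.2 and 97.4 CPM) and choroid plexus-like cells (78.7 and 70.8 CPM) lay below that. The part of free RNA in these ratios was not tested. Without the barcodes that held at least 8 mitosis members, the sum of the latter 3 genes in microglia-like cells had a ratio of 0.870 (0.799 to 0.947), and the intervals included 1 in choroid plexus-like cells (0.965, 0.887 to 1.05) and T cell-like cells (1.15, 0.986 to 1.34). Each library was 1 sample, and the differences between types were not tested.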

How the results depend on the processing

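Of 220 values recomputed under alternatives, 174 kept their direction and moved by less than the interval of the main value. The mitosis ratio in microglia-like cells (3.38) stayed above 1 throughout. It was 3.83 without called doublets, 3.79 at 500 UMIs and 250 genes, 3.88 at 2000 UMIs and 1000 genes, 4.73 with types given by marker share, 3.79 with cell-cycle genes kept in the clustering, 2.62 with cells thinned to 1000 UMIs, 2.36 with cells weighted equally, 3.75 after subtracting free RNA, and 7.57 without the 5 cells of each library with the most mitosis UMIs. The S phase ratio (1.24) was 1.36 without doublets, 1.70 by marker share and 1.49 without the 5 cells. The median log2 ratio of the members (1.61) was 2.16 by marker share, 0.88 thinned, 0.87 with equal weights and 2.67 without the 5 cells. Without barcodes of 8 or more mitosis members, an alternative chosen after seeing the data, these 3 values were 1.22, 1.13 and 0.25. In Fit2-WT the 5 cells with the most mitosis UMIs held 68.6% of them, as did its 5 many-member barcodes. In Fit2-Mut the 5 cells held 40.0%, beside 89.2% in its 25 many-member barcodes. Leaving out 5 cells thus took unequal parts from the libraries, and the rise to 7.57 cannot be read as a firmer difference. The share ratio (2.44) ranged from 2.42 to 6.45. It had no value at 500 UMIs, where cells cannot be thinned to 1000, or without the many-member barcodes, where 2 of 625 and 0 of 708 cells remained, at or under the floor of 3.

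In the other types the T cell-like mitosis ratio (0.843) turned to 1.01 without the 5 cells and 1.12 without the many-member barcodes, and was 0.988 by marker share; the S phase ratio was 1.77 by marker share and 1.35 thinned. The choroid plexus-like mitosis ratio (0.893) was 1.38 at 2000 UMIs, 1.41 by marker share, 1.39 with cell-cycle genes in the clustering, 1.12 with equal weights, 1.21 without the 5 cells and 1.20 without the many-member barcodes, and its S phase ratio (0.956) was 1.04, 1.03, 1.04 and 1.04 with cell-cycle genes in the clustering, thinned, without the 5 cells and without the many-member barcodes. The oligodendrocyte-like mitosis ratio (1.12) was 0.801 at 500 UMIs, 0.815 at 2000 UMIs, 1.81 thinned, 0.600 after subtracting free RNA and 0.932 without the many-member barcodes, and its S phase ratio (1.06) was 0.974 at 500 UMIs, 0.961 by marker share and 1.31 thinned. Thinning also gave 1.40 and 1.29 for astrocyte-like mitosis and S phase ratios, and 0.683 and 1.53 for endothelial-like and ependymal-like S phase ratios. The causes were not tested. No paired analysis was possible because each genotype has 1 library. No free RNA value could be had for choroid plexus-like cells, whose own gene Ttr sets that scale. The main limits are 1 suspension per genotype and the 30 microglia-like barcodes that carry most mitosis UMIs.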
